A study of Rattus norvegicus with 2 samples.

Results

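The bone and cartilage lineage genes Bmp4, Tnfrsf11b, Dlx3, Alpl, Acan and Cilp were followed in cultured rat mesenchymal stem cells (bmMSCs). They were taken by symbol from a deposited table of 2325 rows, so the members are 6 of 2325, and each symbol was found in exactly 1 row. Both groups were bmMSCs of Sprague-Dawley rats at passages 3 to 5, stromal cells that grow out of marrow on plastic. The untransfected cells served as negative control, and the other cells were taken 10 days after they were given both Pdx1 and Ngn3 by transfection, transcription factors of the pancreas and of its endocrine cells. Each group is 1 library, the control cells went through no transfection, and no source used here says how many rats or cultures fed each library. For the control cells no day of collection is given, so the libraries are no pair of times from 1 culture. The comparison therefore asks how the skeletal genes of a stromal cell stood after pancreatic factors were introduced, in these libraries and with no replicate check.

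Marrow stromal cells can give rise to bone, cartilage and fat cells. Bone morphogenetic proteins such as Bmp4 are secreted ligands that bind surface receptors, act through Smad proteins and drive both bone and cartilage formation, while secreted antagonists such as chordin and follistatin hold them back. Dlx3 is a homeobox transcription factor of osteoblasts and an induced gene of that pathway, and Alpl encodes the tissue-nonspecific alkaline phosphatase, which removes pyrophosphate and so permits mineral to form. Tnfrsf11b encodes osteoprotegerin, a secreted decoy receptor that keeps RANK ligand from osteoclast precursors. Acan encodes aggrecan, the large proteoglycan of cartilage, and Cilp the cartilage intermediate layer protein, a secreted matrix protein.

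The RefSeq table of promoters (build GRCr8) held 4 of the 6 genes by gene identifier: Bmp4, Alpl, Acan and Cilp. Dlx3 and Tnfrsf11b are named only. The 250 bases before the transcription start are shown because Bmp4 and Cilp were higher, and Alpl and Acan lower, in cells given a homeobox factor and a basic helix-loop-helix factor. Capitals mark the E-box letters CANNTG, the core that basic helix-loop-helix factors bind, and TAAT or its reverse complement, the core that homeobox factors bind. Both strands were searched, and CANNTG reads the same on both.
Bmp4, chr15:22101934-22102183, minus strand: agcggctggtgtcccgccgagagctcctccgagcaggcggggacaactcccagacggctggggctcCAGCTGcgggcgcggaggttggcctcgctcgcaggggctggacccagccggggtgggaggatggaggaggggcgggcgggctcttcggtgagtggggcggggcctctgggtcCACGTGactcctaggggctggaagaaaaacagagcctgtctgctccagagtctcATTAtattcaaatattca
Cilp, chr8:74672198-74672447, plus strand: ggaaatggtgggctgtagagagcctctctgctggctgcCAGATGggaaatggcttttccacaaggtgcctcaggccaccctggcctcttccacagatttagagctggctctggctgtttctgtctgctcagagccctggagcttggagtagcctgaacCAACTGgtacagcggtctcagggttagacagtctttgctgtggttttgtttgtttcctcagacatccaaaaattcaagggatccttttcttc
Alpl, chr5:155289786-155290035, minus strand: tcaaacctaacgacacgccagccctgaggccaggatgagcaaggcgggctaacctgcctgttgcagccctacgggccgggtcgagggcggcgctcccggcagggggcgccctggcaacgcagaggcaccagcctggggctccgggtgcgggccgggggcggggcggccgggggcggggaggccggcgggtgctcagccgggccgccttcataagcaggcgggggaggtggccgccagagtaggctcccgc
Acan, chr1:142390701-142390950, plus strand: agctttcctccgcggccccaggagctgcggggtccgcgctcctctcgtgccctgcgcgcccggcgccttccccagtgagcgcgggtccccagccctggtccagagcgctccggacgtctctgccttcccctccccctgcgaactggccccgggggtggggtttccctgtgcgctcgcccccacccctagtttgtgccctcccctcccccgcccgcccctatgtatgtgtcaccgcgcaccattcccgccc
The stretch of Bmp4 held 2 E-box matches and 1 TAAT match, and that of Cilp held 2 E-box matches and 0 TAAT matches. Alpl and Acan held 0 of either. Of all 33469 promoter stretches of the same length, 65.5% held CANNTG and 57.0% held TAAT, so a match is common. The stretches of Alpl (76.0% G and C) and Acan (73.6%) were richer in G and C than that of Bmp4 (66.4%), and Cilp (52.0%) lay close to the median of all stretches, 51.2%. CpG pairs numbered 25 in Alpl, 24 in Acan, 17 in Bmp4 and 1 in Cilp, against a median of 5. In the RefSeq models, Bmp4 and Cilp also reach upstream of the start used here, by 11212 and 752 bases. No binding or methylation was measured, and a match describes letters alone.

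The authors' table carries whole read counts and RPKM, that is, reads scaled by cDNA length and by the library total. Library totals implied by counts, lengths and RPKM were 7800831 (untransfected) and 7415094 reads (transfected). Every row had already passed a 2-fold change and a false discovery limit in the authors' analysis, so no skeletal gene with a smaller change could be seen, and skeletal genes outside the table were not analysed here. Fold changes below are ratios of reads divided by these totals, and intervals are exact 95% intervals that cover counting error only (amplified reads carry no molecular identifiers and are no independent molecules). The introduced Pdx1 had 0 untransfected reads, which allows a level of up to 0.274 RPKM at 3 reads, and 565 transfected reads, as its labels say, and Ngn3 was not analysed here. Of the mesenchymal stromal markers on the list, 10 of 22 were in the table, 5 higher and 5 lower (3 and 5 with the TMM or median-of-ratios scalings described below). Among them Itgb1 stood at 1057 and 519 RPKM and Thy1, the stromal marker CD90, at 1101 and 322 RPKM in untransfected and transfected cells, Itga5 at 102 and 33.1 RPKM and Kitlg, stem cell factor, at 10.9 and 122 RPKM. In bulk RNA, fewer cells of a type and less RNA per cell cannot be told apart.

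Of the 6 genes, 3 were higher in the transfected library (Bmp4, Tnfrsf11b and Cilp) and 3 lower (Dlx3, Alpl and Acan), beside 63.5% of all rows higher and 36.5% lower. Their median log2 ratio was 0.74, against 1.24 over all rows. The split ran across both lineages, among genes that were chosen with earlier results of these data known. The decoy receptor was higher while the bone transcription factor and the mineralizing enzyme were lower. Of the pair of cartilage matrix genes Cilp was higher and Acan lower. The ligand Bmp4, which belongs to bone and cartilage formation alike, was higher. Reads behind a gene ran from 80 for Alpl to 7975 for Tnfrsf11b over both libraries.

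**Figure D1:**
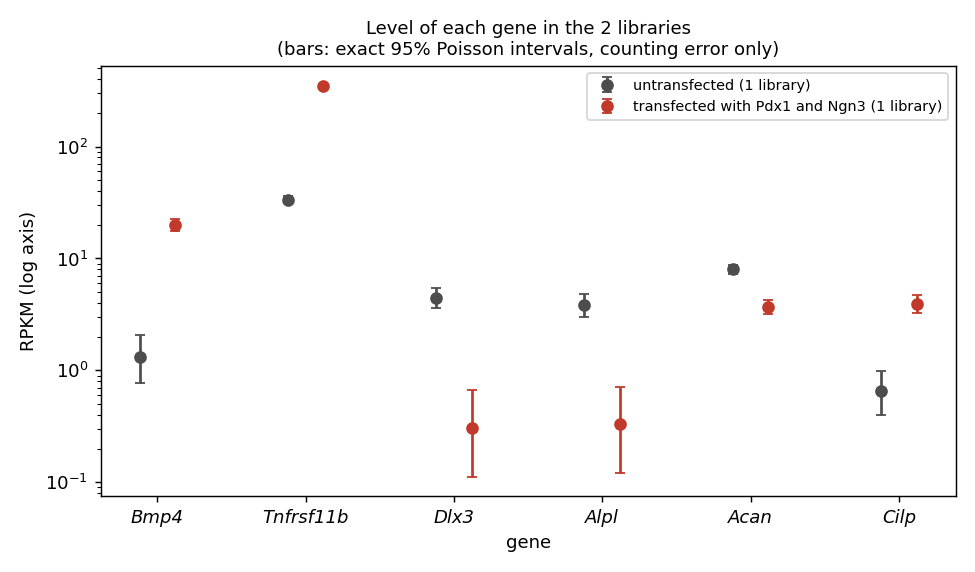
RPKM of the 6 genes (log axis) in the untransfected library (grey) and the transfected library (red), 1 library each, with exact 95% Poisson intervals as bars. For every gene the intervals of both libraries lie apart, which the authors' selection of changed rows makes likely beforehand. Dlx3 and Alpl in the transfected library, at 6 reads each, have the widest.

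Bmp4, the ligand, had 18 untransfected and 261 transfected reads. As levels per length these were 1.31 RPKM (interval 0.778 to 2.07) and 20.02 RPKM (17.7 to 22.6). It was 15.3-fold higher (9.46 to 26.1), the largest ratio among the 3 higher members. Among the 1476 higher rows, 8.33% had a larger fold. The untransfected level rests on few reads. The lower limit of the fold was above 9, a limit for counting error with library totals only. With TMM or median-of-ratios scaling the log2 ratio was 3.15 or 2.73 in place of 3.93, under the lower limit of 3.24 on that scale.

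Tnfrsf11b, osteoprotegerin, had 740 and 7235 reads. Its level went from 33.5 RPKM (31.1 to 36.0) to 345 RPKM (337 to 353). It was 10.3-fold higher, with the narrowest interval of the 6 in relative terms (9.53 to 11.1). It was the most abundant member in both libraries, and by mean RPKM it ranked 82 of the 2325 rows. Of the higher rows, 14.2% had a larger fold.

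Dlx3, the homeobox factor, had 92 untransfected and 6 transfected reads. The levels were 4.46 RPKM (3.60 to 5.47) and 0.306 RPKM (0.112 to 0.666). It was 14.6-fold lower, with a wide interval (6.45 to 40.7) that comes from the 6 reads. Of the 849 lower rows, 6.12% had a larger fold. Dlx3 sat near the bottom of the table by abundance, at rank 1982 of mean RPKM.

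Alpl, alkaline phosphatase, followed Dlx3 closely in both libraries. It had 74 and 6 reads, or 3.85 RPKM (3.03 to 4.84) and 0.329 RPKM (0.121 to 0.715). It was 11.7-fold lower (5.14 to 33.0), and 8.48% of the lower rows had a larger fold. The ratio of the Dlx3 to the Alpl level was 1.16 (0.843 to 1.59) in untransfected and 0.932 (0.249 to 3.48) in transfected cells, so their levels were not separable by counting error in either.

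Acan, aggrecan, had 433 and 190 reads. It stood at 7.999 RPKM (7.26 to 8.79) and 3.69 RPKM (3.19 to 4.26), on a cDNA of 6939 bases that its description calls alternatively spliced. It was 2.17-fold lower (1.82 to 2.58), with library totals the smallest change of the 6 and close to the limit of the authors' selection. Of the lower rows, 85.5% had a larger fold.

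Cilp, the other cartilage matrix gene, had 21 and 121 reads. Its level was 0.652 RPKM (0.403 to 0.996) in untransfected and 3.95 RPKM (3.28 to 4.72) in transfected cells. It was 6.06-fold higher (3.79 to 10.1), and 26.0% of the higher rows had a larger fold. Cilp was thus the lowest member in the untransfected library and level with Acan in the transfected library.

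The order of the levels per length changed between the libraries. In untransfected cells it ran Tnfrsf11b, Acan, Dlx3, Alpl, Bmp4, Cilp, and the neighbours Dlx3 and Alpl were not separable (ratio 1.16). Bmp4 and Cilp were barely so (ratio 2.01, interval 1.01 to 3.97). In transfected cells it ran Tnfrsf11b, Bmp4, Cilp, Acan, Alpl, Dlx3. There Cilp and Acan were not separable (ratio 1.07, 0.845 to 1.35), nor were Alpl and Dlx3 (1.07, 0.287 to 4.02).

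Ratios of levels between genes within a library do not depend on how the libraries were scaled. Bmp4 stood at 0.341 times the level of Alpl in untransfected cells (0.191 to 0.576) and at 60.9 times that level in transfected cells (27.6 to 168), a shift of 179-fold. Against Dlx3 its ratio went from 0.294 (0.167 to 0.491) to 65.4 (29.6 to 180). The Cilp to Acan ratio went from 0.0815 (0.0499 to 0.126) to 1.07, a shift of 13.1-fold. In each of these pairs the intervals of both libraries lay apart. Each pair sets a higher over a lower member, and every row had passed 2-fold, so a shift followed from that choice. The same holds for the ratios of Vcan and Adamts4 to Acan given below. These ratios describe the size of the shift and are no separate evidence for it.

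**Figure D2:**
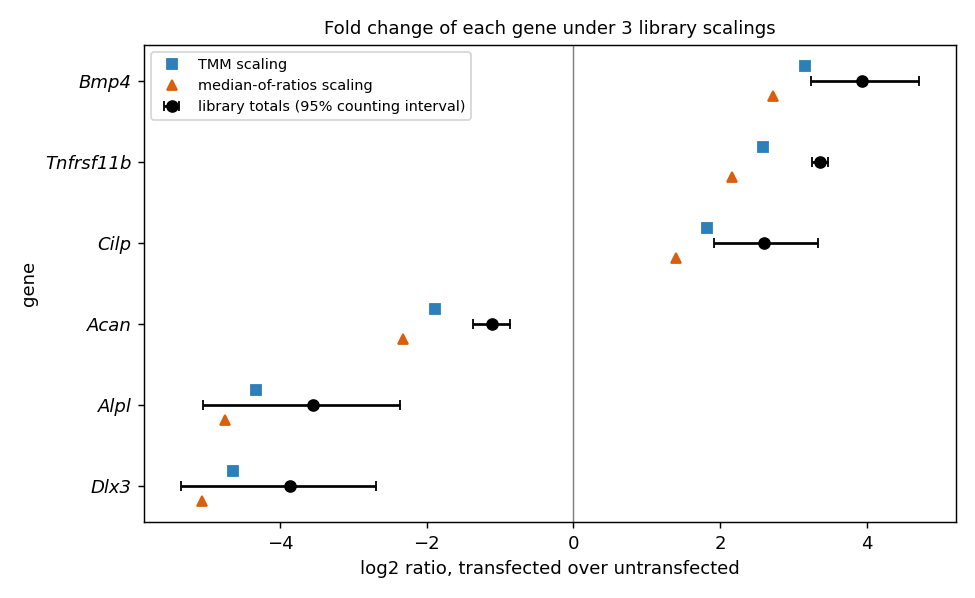
Log2 ratio of transfected over untransfected reads for the 6 genes, with library totals (black, 95% counting intervals), TMM (blue squares) and median-of-ratios scaling (orange triangles). Each gene stays on its side of 0 under all 3, from Dlx3 at -3.87 to Bmp4 at 3.93 with library totals, while the other scalings lie to the left. Shifts of this size and direction could not bring any of the 6 across 0.

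Scaling by TMM or by median of ratios on the listed rows, which were selected for change, moved every log2 ratio by -0.78 or -1.20. The median of all rows was then 0.46 or 0.04 in place of 1.24, and higher rows made up 46.4% or 38.8% of those past 2-fold, in place of 63.5%. All 6 genes had the same direction under both and were still at least 2-fold changed, 3 higher and 3 lower. That follows from the size of the shifts. The 3 higher genes had log2 ratios of 2.60 or more, and a negative shift moves lower genes further from 0. With median of ratios the log2 ratio of Acan was -2.32 in place of -1.12, and that of Cilp 1.40 in place of 2.60.

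In the plane of all rows, the 6 genes lay at different depths. Dlx3 and Alpl lay side by side among the less abundant lower rows, Acan at the inner edge of the lower rows, and Tnfrsf11b apart from the others among abundant higher rows. The rows nearest to each gene were found by the distance between pairs of log2 RPKM, over 2 libraries and 1527 rows, those with a rat gene symbol other than a predicted locus or clone name (symbols that begin with LOC, RGD or MGC). With only 2 libraries many rows can lie close. The nearest to Bmp4 were Gzmb (distance 0.07) and Rftn1 (0.24), to Tnfrsf11b Aspn (0.41) and Dab2 (0.63), and to Dlx3 Olr59 (0.14) and Lamb3 (0.20). For Alpl they were Susd5 (0.19) and Myo7a (0.21), for Acan Plekhg3 (0.03) and Daam2 (0.04), and for Cilp Syn1 (0.16) and Nod2 (0.16). Apart from Aspn, the matrix protein asporin, none of these was on the skeletal lists.

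**Figure D3:**
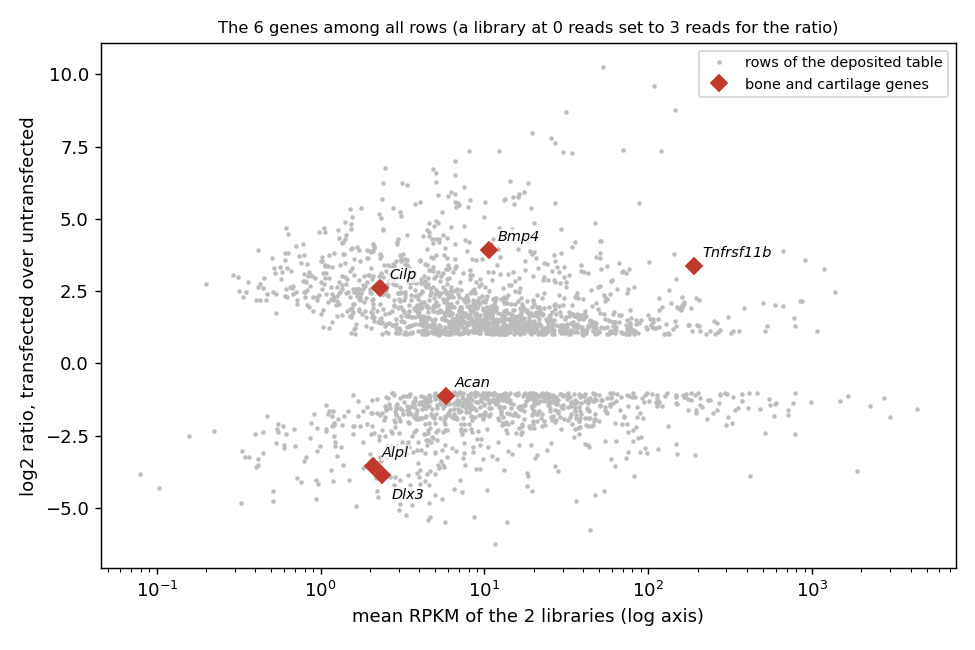
Log2 ratio of transfected over untransfected reads against mean RPKM of the 2 libraries (log axis) for all 2325 rows (grey) and the 6 genes (red diamonds), with a library at 0 reads set to 3 reads. The empty band around 0 is the authors' selection, Acan lies at its edge, and Tnfrsf11b lies far right of the other 5.

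The other skeletal genes came from 11 lists of bone, cartilage, BMP and tendon genes, 225 genes in all. Of these, 58 were in the table, 32 higher and 26 lower, with a median log2 ratio of 1.41. Without the 6 members there were 29 higher and 23 lower. With median-of-ratios scaling, 17 were at least 2-fold higher and 26 lower, a share of 39.5% higher against 55.2% with library totals. Over all rows these shares were 38.8% and 63.5%. Under that scaling Smad3 and Pdpn turned direction.

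Among osteoblast regulators 3 of 20 were in the table, 1 higher and 2 lower. Beside Dlx3, Fosl1, an AP-1 factor, was 3.29-fold lower (23.6 and 7.17 RPKM). With TMM or median-of-ratios scaling 0 were higher by 2-fold and 2 lower. The bone matrix and mineralization list had 7 of 31 in the table, 3 higher and 4 lower, with a median log2 ratio of -1.01. With median-of-ratios scaling 0 were higher and 4 lower, and Pdpn turned. The collagen crosslinking enzyme Lox was 3.84-fold higher (66.5 and 256 RPKM), Ogn, osteoglycin, 4.09-fold (10.5 and 43.0 RPKM) and Pdpn, podoplanin, 2.08-fold (209 and 435 RPKM). The pyrophosphate transporter Ankh was 2.19-fold lower (54.6 and 24.9 RPKM). Enpp1, which makes the pyrophosphate that Alpl removes, was chosen after its values were seen. It was 2.01-fold lower (19.2 and 9.57 RPKM).

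Osteoclast coupling genes, the signals between stromal cells and osteoclasts, had 5 of 18 in the table, 4 higher and 1 lower, with a median log2 ratio of 2.58. Beside Tnfrsf11b, the cytokine Il6 was 11.4-fold higher (16.3 and 186 RPKM) and Cxcl12, a marrow chemokine, 2.82-fold higher (23.2 and 65.4 RPKM). The lower member was Pth1r, the receptor of parathyroid hormone, at 3.79 and 1.44 RPKM (2.64-fold, interval 1.60 to 4.51). The Il6 to Tnfrsf11b ratio of levels was 0.487 (0.401 to 0.586) in untransfected and 0.541 (0.511 to 0.573) in transfected cells, intervals that overlap. With TMM or median-of-ratios scaling 3 were higher and 1 lower.

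Cartilage matrix genes had 10 of 33 in the table, 6 higher and 4 lower (4 and 4 with median-of-ratios scaling), with a median log2 ratio of 2.01. Vcan, versican, a proteoglycan of the aggrecan family found in loose tissue, was 3.80-fold higher (63.4 and 241 RPKM). The small proteoglycans Dcn, decorin, and Lum, lumican, which occur in most connective tissues, were 4.27-fold (190 and 814 RPKM) and 8.76-fold higher (8.73 and 76.5 RPKM). Fmod, the small proteoglycan fibromodulin, and Prelp, also on this list, went the other way and were chosen after their values were seen. Fmod, which is on the tendon list too, was 6.79-fold lower (44.6 and 6.56 RPKM, interval 5.70 to 8.14). Prelp was 2.71-fold lower (44.0 and 16.2 RPKM). Col11a1, a cartilage collagen chain, was 2.08-fold lower (143 and 68.9 RPKM), close to the change of Acan. The Vcan to Acan ratio of levels went from 7.92 (7.19 to 8.75) to 65.2 (56.6 to 75.7). None of the 22 cartilage regulators on the list was in the table, so these were not analysed here.

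Proteases of cartilage matrix and their inhibitors had 8 of 16 in the table, 4 higher and 4 lower (3 and 4 with median-of-ratios scaling). Adamts4, an aggrecan-cleaving protease, had 26 and 303 reads and was 12.3-fold higher (8.20 to 19.1), at 0.998 and 12.2 RPKM. Its ratio to Acan, its substrate, went from 0.125 (0.0806 to 0.185) to 3.31 (2.76 to 3.99). Timp1, a protease inhibitor, was 4.08-fold higher (235 and 960 RPKM). Timp3, the other inhibitor found, was chosen after its values were seen. It had 126 and 3 reads and was 39.9-fold lower (13.4 to 196). Adamts1, another protease of that family, was 4.98-fold lower (135 and 27.1 RPKM) and Mmp3, stromelysin 1, 8.45-fold lower (135 and 16.0 RPKM).

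**Figure D4:**
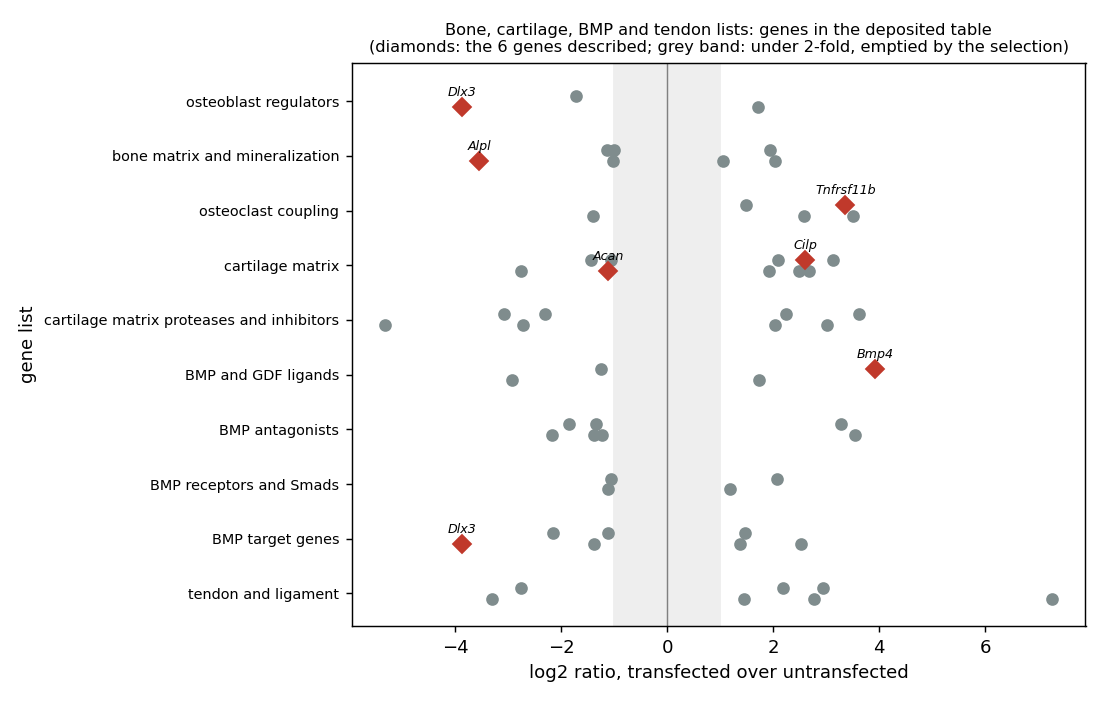
Log2 ratio of transfected over untransfected reads for each gene found in the table from 10 lists, with the 6 genes as red diamonds and other genes as grey points. The band under 2-fold is empty through the authors' selection. Genes lie on both sides of it in every list, from 1 higher and 2 lower osteoblast regulators to 6 higher and 4 lower cartilage matrix genes.

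Of the BMP and GDF ligands, 4 of 26 were in the table, 2 higher and 2 lower. Beside Bmp4, Inhbb, an inhibin and activin subunit, was 3.33-fold higher (5.57 and 18.6 RPKM). Gdf15, a stress-induced family member, was 7.60-fold lower (11.2 and 1.48 RPKM), and Mstn, myostatin, 2.37-fold lower (6.45 and 2.72 RPKM). With TMM or median-of-ratios scaling Bmp4 alone was 2-fold higher and the same number, 2, was lower.

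Antagonists of BMP had 7 of 17 in the table, 2 higher and 5 lower, with a median log2 ratio of -1.34. Among the lower ones were Fstl1 (2.34-fold, 761 and 325 RPKM), a follistatin-like protein, Crim1 (3.61-fold, 133 and 36.8 RPKM), a membrane-bound BMP binder, and Fst, follistatin (4.54-fold, 62.7 and 13.8 RPKM). The pair that was higher, chosen after their values were seen, was Chrd, chordin (72 and 803 reads, 11.7-fold, interval 9.21 to 15.1), and Bmper, a BMP-binding regulator (32 and 295 reads, 9.70-fold, 6.72 to 14.4). The Chrd to Bmp4 ratio of levels was 2.12 (1.25 to 3.77) in untransfected and 1.63 (1.41 to 1.88) in transfected cells, intervals that overlap. The counts of 2 and 5 were the same with TMM and with median-of-ratios scaling.

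Receptors and Smads had 4 of 22 in the table, 2 higher and 2 lower (0 and 2 with median-of-ratios scaling, where Smad3 turned). Rgma, a BMP coreceptor, was 4.18-fold higher (4.41 and 18.5 RPKM) and Smad3, which carries TGF-beta and activin signals, 2.26-fold higher (8.77 and 19.8 RPKM). The inhibitory Smad7 was 2.18-fold lower (13.2 and 6.07 RPKM) and the activin receptor Acvr1b 2.09-fold lower (7.33 and 3.50 RPKM). BMP target genes, a list that includes Dlx3, had 7 of 18 in the table, 3 higher and 4 lower, with a median log2 ratio of -1.12 (1 and 4 with either TMM or median-of-ratios scaling). Id1, a helix-loop-helix inhibitor and an immediate target, had 34 and 185 reads and was 5.72-fold higher (3.95 to 8.51). Id2, of the same family, was 2.78-fold higher (7.70 and 21.4 RPKM) and the transcription factor Gata3 2.59-fold higher (3.55 and 9.19 RPKM). Beside Dlx3 and Smad7, the lower targets were Id4, of the same family as Id1 (33 and 7 reads, 4.48-fold, 1.95 to 12.003), and Bambi, a decoy receptor (8.70 and 3.34 RPKM, 2.61-fold), both chosen after their values were seen. Dlx3 was the lowest of the 7.

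Tendon and ligament genes, a neighbouring lineage, had 7 of 16 in the table, 5 higher and 2 lower (3 and 2 with median-of-ratios scaling), with a median log2 ratio of 2.18. The matrix proteins Postn, periostin (4.52-fold, 313 and 1415 RPKM), Aspn (7.64-fold, 34.0 and 260 RPKM) and Dpt, dermatopontin (6 and 878 reads, 154-fold, interval 70.4 to 421), were higher, as was the immediate early factor Egr1 (6.85-fold, 7.33 and 50.2 RPKM). Scx, the tendon transcription factor scleraxis, was chosen after its values were seen. It had 282 and 27 reads and was 9.93-fold lower (6.68 to 15.3). Adipocyte genes, the third lineage of these cells, had 6 of 25 in the table, 5 higher and 1 lower (1 and 1 with median-of-ratios scaling, where Adfp turned). Lpl, lipoprotein lipase, was 7.33-fold higher (5.88 and 43.1 RPKM), Cebpd, an early adipogenic factor, 2.89-fold (15.9 and 45.9 RPKM), the lipid droplet protein Adfp 2.26-fold (38.6 and 87.2 RPKM), and the desaturase Scd1 was 3.46-fold lower (9.35 and 2.70 RPKM).

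Genes on the lists of other cell types also differed between the libraries. Such a gene need not come from another cell, and Mcam was on both the smooth muscle and the stromal list. Smooth muscle and pericyte genes had 16 of 23 in the table, 3 higher and 13 lower, and their summed level went from 15753 to 4843 RPKM. The 3 higher ones, chosen after their values were seen, were Synpo2 (60 and 1058 reads), Rgs5 (0 and 39 reads) and Notch3 (4 and 30 reads). The sum rests mostly on Tagln and Acta2, which were lower, and so does not describe the higher ones. Tagln stood at 6522 and 2186 RPKM, Acta2, whose count is uncertain because near-identical actins may share its reads, at 4648 and 1298 RPKM, Myl9 at 1398 and 562 RPKM and Tpm2 at 914 and 257 RPKM. Of 26 osteoclast and macrophage markers 1 was in the table, Cd68 (5 and 26 reads), and of 11 B cell and class II genes 2, Cd74 (96 and 5 reads) and RT1-Db1 (32 reads and 1 read). Of 15 endothelial markers Egfl7 was present (78 and 22 reads). The other markers were not analysed here. Whether the cultures held such cells, and what part they had in the values of the 6 genes, was not tested.

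The gene ontology terms in the authors' deposited table gave a shared label to the 3 higher genes. Bmp4, Tnfrsf11b and Cilp each carried the term extracellular matrix, which 45 rows had, 35 higher and 10 lower (77.8% higher, against 63.5% of all rows, and 21 higher and 10 lower with median-of-ratios scaling). The label is uneven, since Acan is filed under proteinaceous extracellular matrix instead. Bmp4 and Acan shared chondrocyte differentiation, a term of 5 rows, 4 higher and 1 lower, in which Acan was the lower one. A row without a symbol (3 and 77 reads, 27.0-fold higher) carried this term and extracellular matrix, as Bmp4 did. It also shared with Bmp4 every other term examined here that Bmp4 carried, such as bone mineralization and BMP signaling pathway. Whether this row is a second entry of Bmp4 or another gene was not tested, so these counts of rows may hold a gene more than once. Alpl was the only row with tooth mineralization. The coding part made up 93.5% of the Acan and 86.1% of the Cilp cDNA, 69.8% for Bmp4, 64.0% for Alpl, 42.6% for Tnfrsf11b and 32.7% for Dlx3, so higher and lower genes did not separate by it.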

How the data were processed

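RNA sequencing libraries of untransfected and of Pdx1 and Ngn3 transfected rat bmMSCs were compared, 1 library per group. Per the labels' protocols, messenger RNA was selected on oligo(dT) beads, fragmented and primed with random hexamers, and no strand-marking step is named. Reads of a gene and its antisense partner therefore cannot be told apart. The submitters' processing notes name build rn4, and no source used here names the aligner or counter. The deposited table holds read counts per cDNA cluster and RPKM, which the authors computed from the counts, with 0.001 written for 0 reads. The authors' deposited log2 ratio compares the RPKM of both libraries, and the deposited p-values and false discovery rates come from a test not named in the sources used here. Its smallest absolute log2 ratio is 1.00 and its largest false discovery rate 0.000996.

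Members were matched by deposited symbol. Their choice, and that of the 17 gene lists and the alternatives, was made with earlier results of these data known. Named beyond the members were Pdx1, from each list every gene found, or the 4 with the highest mean RPKM where more than 4 were found, and the 2 nearest rows of each member. Some genes that this rule names are not reported here. Library totals were taken as the value that count, length and RPKM imply (1 untransfected row deviated). Ratios have exact Clopper-Pearson and levels exact Poisson 95% intervals (scipy 1.17.1). Only the ratio intervals were checked, on simulated Poisson counts without selection for change or spread between cultures. That check therefore does not describe their coverage for the selected rows. A gene counted as higher or lower at 2-fold. For ratios, 0 reads were replaced by 3. TMM factors came from edgeR 4.0.16 and median-of-ratios size factors from DESeq2 1.42.0, and neither was used for a test. Without replicates no test was run and no p-value computed. Promoter sequences are RefSeq's for GRCr8. Counts were not tied to coordinates of that build.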

Additional observations from a re-analysis of the deposited data

How the results depend on the processing

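All 6 genes kept their direction under all 6 alternatives, which were 4 other library scalings and 2 pseudocounts. The scalings and the RPKM pseudocount could not have reversed a member. The scalings moved log2 ratios by -1.20 to 0.10, less than the distance to 0 of the members they pushed towards it. Adding the same amount to both RPKM levels cannot change their order. With TMM scaling the log2 ratios that left their counting interval were 3.15 for Bmp4, 2.59 for Tnfrsf11b, 1.82 for Cilp and -1.89 for Acan, and with median-of-ratios scaling 2.73, 2.16, 1.40 and -2.32. From log2 of RPKM plus 1 they were 3.18 for Bmp4, 1.58 for Cilp, -2.06 for Dlx3 and -1.87 for Alpl, which a pseudocount pulls towards 0 by its construction. Acan was then at -0.94, within its interval but under 2-fold, and so no longer counted as lower. Scaling by column sums, or without the 20 genes with most reads per library, left all 6 within their intervals, as did adding 3 reads. Of 252 values recomputed under alternatives, 33 left the counting interval (log2 ratios) or differed by more than 1.5 times (counts of genes). The other 219 were equal or changed by less, but part of them could not move. The cartilage regulators had 0 genes in the table. Scalings that lowered every ratio could not change the numbers of lower genes, since the table lacks rows under 2-fold. The tally is therefore no measure of robustness. Over all skeletal lists the higher genes numbered 17 with median-of-ratios scaling in place of 32. With TMM scaling the higher genes numbered 0 osteoblast regulators, 1 each among BMP ligands, BMP receptors and Smads, and BMP targets, 2 adipocyte and 3 mesenchymal stromal genes. With median of ratios they numbered 0 osteoblast regulators, 0 bone matrix genes, 0 BMP receptors and Smads, 1 each among BMP ligands, BMP targets and adipocyte genes, 3 tendon and 3 mesenchymal stromal genes. With column sums the lower genes numbered 2 for bone matrix and 1 for BMP receptors and Smads. A minimum of 50 reads left 1 higher smooth muscle gene, 0 higher osteoclast and macrophage genes and 1 lower B cell and class II gene, and matching by RefSeq synonym gave 2 higher osteoclast and macrophage genes. Over all rows, higher genes made up 46.4% of those past 2-fold with TMM and 38.8% with median of ratios. No paired analysis was possible because each group is 1 library, and leaving out a replicate was likewise not possible. Depth limits Dlx3 and Alpl most, at 6 transfected reads each.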

Other observations

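Other genes filed under ossification in the authors' deposited table, a term that none of the 6 genes carries, numbered 17, with 12 higher and 5 lower (70.6% higher, near the 63.5% of all rows, and 6 and 5 with median-of-ratios scaling). These genes were chosen after their values were seen. Among the higher ones were Igfbp5, which binds insulin-like growth factors (4 and 4630 reads), Fgf9, a fibroblast growth factor of the skeleton (11 and 182 reads, 17.4-fold, interval 9.50 to 35.5), and Cyp26b1, which breaks down retinoic acid (22 and 87 reads). Among the lower ones were Fgfr2, a fibroblast growth factor receptor of bone (859 and 289 reads, 2.83-fold, 2.47 to 3.24), and Mmp13, the collagenase of growth cartilage (166 and 24 reads, 6.57-fold, 4.27 to 10.6). Nell1, a secreted protein that promotes bone formation and is filed under regulation of ossification, had 0 untransfected and 62 transfected reads. The exact lower limit of its fold was 17.2.

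The p-values in the authors' deposited table behaved differently for lower genes and for higher genes at several low untransfected counts. Bmp4, with 18 untransfected and 261 transfected reads, has a deposited p-value of 1.77e-08, larger than the 1.64e-15 of Alpl with 74 and 6 reads, although the fold of Bmp4 is larger and rests on more reads. Among the 11 higher rows with 18 untransfected reads, the 6 with 93 to 261 transfected reads share this value to within 0.01%. Likewise Cilp shares 2.83e-09 with the other rows that have 21 untransfected reads and at least 100 transfected reads, 5 rows in all, which reach up to 1213 reads. Among lower rows no such floor appears: the 9 rows with 6 transfected reads, Alpl and Dlx3 included, have 9 distinct p-values, down to 1.38e-22. At 2 untransfected reads the smallest deposited p-value of higher rows was 0.000121, beside 0.000128 as the largest of any row. Not all higher rows were held at such values. With 0 untransfected reads, 29 rows of 50 to 638 transfected reads have a deposited p-value of 0, as has Tnfrsf11b with 740 and 7235 reads. The table holds 109 higher rows with 0 untransfected reads and 34 with 2, but 0 with 1. The cause, and whether it kept skeletal genes with very few untransfected reads out of the table, was not tested. The folds and intervals given above do not use these p-values.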
